A study of Mus musculus with 16 samples.

Results

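The genes described here make and acidify the lysosome: 51 genes taken by symbol for these roles, of which 10 encode cathepsins, 14 other lysosomal hydrolases, 11 lysosomal membrane, cholesterol transport and cofactor proteins, 2 transcriptional regulators and 14 subunits of the vacuolar proton pump. They were found in the expression table by matching its transcript rows to gene symbols, which gave 165 of 130343 rows and 51 of 35569 symbols.

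Male C57BL/6J wild-type mice received either a normal laboratory diet (lean) or a high-fat diet with 42% of energy from fat and 0.2% cholesterol (obese), from 10 weeks of age and for 12 to 14 months. Inguinal subcutaneous adipose tissue (SAT, with the left and right depots of a mouse combined) and mesenteric visceral adipose tissue (VAT) were taken from each mouse. RNA of whole tissue was sequenced, with 4 mice per diet and thus 16 libraries in 4 groups. The mice carried no transgene, and males of 1 strain, 1 age range and 1 diet formula limit what the groups stand for.

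Lysosomes break down proteins, lipids and sugars with acid hydrolases, among them the cathepsin proteases and lysosomal acid lipase. The vacuolar proton pump, built from a membrane sector named V0 and an ATP-splitting sector named V1, lowers the pH that these enzymes need. In adipose tissue, lysosomes are abundant in macrophages, which take up lipid released by adipocytes, and the transcription factors TFEB and TFE3 are known to act on many lysosomal genes through an E-box-like promoter element.

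That element is shown for the members first, because it is a known element of lysosomal gene promoters. In RefSeq promoter windows from 250 bases before to 50 bases after a transcript start (build GRCm38.p6), 44 members matched 53 promoters, and the other 7 were Ctsb, Ctsh, Npc1, Atp6v1b2, Atp6v1c1, Atp6v1g1 and Atp6v1h. The 6-base box CACGTG, read on both strands, was in 16 of the 53 windows (30.2%) and in 7.15% of the 32851 windows of all genes. Its 7-base extension TCACGTG, which contains the shorter box, was in 14 of 53 (26.4%) against 3.77% of all windows. The 8-base palindrome TCACGTGA, which contains both shorter boxes, was in 8 of 53 (15.1%) against 0.974%. The 28-base windows below are centred on 1 such palindrome, in capitals, in each of those 8 genes, written 5′ to 3′ on the strand of the gene.
Ctsd, chr7:142387909-142387936, minus strand: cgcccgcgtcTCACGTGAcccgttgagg
Ctsa, chr2:164833750-164833777, plus strand: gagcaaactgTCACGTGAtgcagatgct
Gla, chrX:134601183-134601210, minus strand: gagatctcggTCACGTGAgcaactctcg
Cln3, chr7:126583341-126583368, minus strand: acgggtactgTCACGTGAcccccaacct
Mcoln1, chr8:3500463-3500490, plus strand: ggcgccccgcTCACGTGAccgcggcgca
Atp6v0d1, chr8:105566051-105566078, minus strand: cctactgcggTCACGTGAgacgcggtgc
Atp6v0e, chr17:26676388-26676415, plus strand: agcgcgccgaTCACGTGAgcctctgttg
Atp6v1a, chr16:44139374-44139401, minus strand: tttttttaaaTCACGTGAtaggcttaac
A match is a run of letters and does not show that a factor binds there. Hydrolase genes without the palindrome but with the 7-base box included Glb1, at chr9:114401019-114401046 on the plus strand (tgcttctgagTCACGTGgcctacagagg), and Lgmn, at chr12:102439125-102439152 on the minus strand (ggaatgtctgTCACGTGgtccattttat). By role, the 7-base box was found for 2 of 8 cathepsins, 5 of 14 other hydrolases, 3 of 10 membrane and cofactor genes, 0 of 2 regulators and 4 of 10 pump genes with a window.

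**Figure D1:**
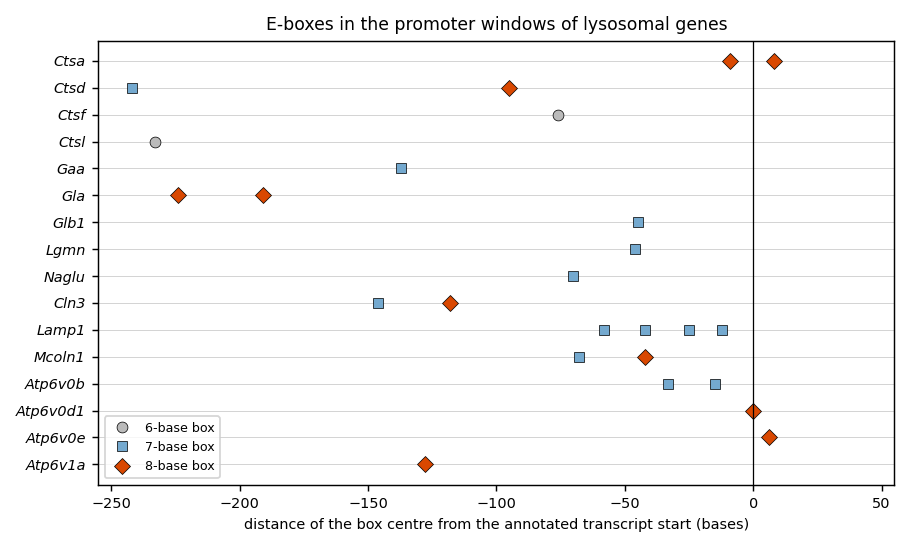
Position of each E-box in the promoter windows of the 16 members that hold one; the x axis gives the distance in bases of the box centre from the annotated transcript start, and the symbol gives the longest of the 3 box forms at that site. Boxes are seen both in hydrolase genes and in pump genes, and the palindromes of Ctsa, Atp6v0d1 and Atp6v0e lie within 10 bases of the start.

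Levels are given as CPM, counts divided by the scaled library size, and they are compared only within a gene, because the counts were not divided by transcript length. Between libraries the total ranged from 1256082 counts (VAT lean replicate 1) to 16614407 (SAT obese replicate 3), and VAT obese replicate 1, with 2247737 counts, was the other shallow library. After scaling 1 count stood for 0.0596 (VAT lean replicate 2) to 0.637 CPM (VAT lean replicate 1). Within groups, libraries correlated at 0.943 to 0.990 on the log scale. Reads were counted per RefSeq transcript, and in some members with several transcripts almost none were counted, so a low count is not read here as low expression. Adipocyte genes from a list of 12 markers summed to 85415 to 105198 CPM in lean SAT and to 42445 to 60943 in lean VAT, and all 12 passed the filter on low counts, which matched the tissue label. Mesothelial markers, 9 of 9 of which were higher in lean VAT than in lean SAT, summed to 269 to 662 CPM in lean VAT and at most 1.82 in lean SAT.

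Of the 51 members, 44 passed the filter (a transcript row above 1 CPM, before scaling, in at least 3 of 16 libraries), and each is represented by its most abundant row. The 7 that did not pass were Psap, Cln3, Mcoln1, Tfeb, Tfe3, Atp6v1d and Atp6v1h. No count was seen in any library for the 8 rows of Psap, the precursor of the saposins that assist sphingolipid breakdown, nor for the single row of Mcoln1, the lysosomal calcium channel. A count of 0 allows up to 3 counts, or 0.179 to 1.91 CPM by library after scaling, and this covers counting error only. Tfeb had 178 counts over its 7 rows and 16 libraries, and its most abundant row, with 80 of them, was at 0 to 0.848 CPM in lean SAT, 0.613 to 0.846 in obese SAT, 0.11 to 0.637 in lean VAT and 0.247 to 1.53 in obese VAT. Tfe3 had 33 counts over 10 rows, 14 of them in the most abundant. With counts summed per gene Tfeb was tested and did not pass in either depot (log2 0.37 ± 0.44 in SAT, adjusted p = 0.654, and 1.21 ± 0.45 in VAT, adjusted p = 0.0904), while Tfe3 was again below the filter. Of the tested members, 28 had a mean of at least 10 CPM and 16 were below it, and for those 16 the error is correspondingly larger.

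The diet comparison asked how the long-term high-fat diet altered each depot. In obese SAT 13 of 44 tested members were higher and 0 lower than in lean SAT at an adjusted p below 0.05 (edgeR, Benjamini-Hochberg over 13288 rows), where 6.21% of all rows tested were higher and 4.84% lower. In obese VAT 14 of 44 were higher and 0 lower, where 6.84% of all rows were higher and 4.08% lower. Among lower members 2 in SAT and 1 in VAT had an unadjusted p below 0.05, and DESeq2 called 1 and 0. The median log2 fold change of the 44 was 0.22 in SAT and 0.28 in VAT, against 0.01 and 0.02 over all rows. The members that rose were mainly hydrolases and membrane proteins, and in each depot 1 of 12 tested pump subunits rose (8.33%), against 12 of 32 other members in SAT (37.5%) and 13 of 32 in VAT (40.6%).

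Abundant rows are called more easily than scarce ones, so the 28 members with a mean of at least 10 CPM, a limit chosen after the data were seen, were set beside rows of that abundance. Of these, 9 were higher in obese SAT, where 10.9% of 4136 such rows were higher, and 12 in obese VAT, where 11.7% were. With the study's own added limit of 1.5 on the log2 scale, Man2b1 was the single member left in SAT (1.5% of all rows were so called higher), and Cd68 and Ctss were left in VAT (2.33%). With counts summed per gene Man2b1 was at 0.65 and below that limit. Most of the changes in lysosomal genes were thus smaller than that limit. Both depots shared 8 called members, Ctsb, Ctsd, Ctsl, Ctss, Lipa, Lgmn, Cd68 and Npc2, which were 61.5% of the SAT list and 57.1% of the VAT list. Over all rows 2.41% were called higher in both depots, 38.8% of the rows higher in SAT and 35.2% of those higher in VAT. SAT and VAT came from the same mice, so these lists are not independent.

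**Figure D2:**
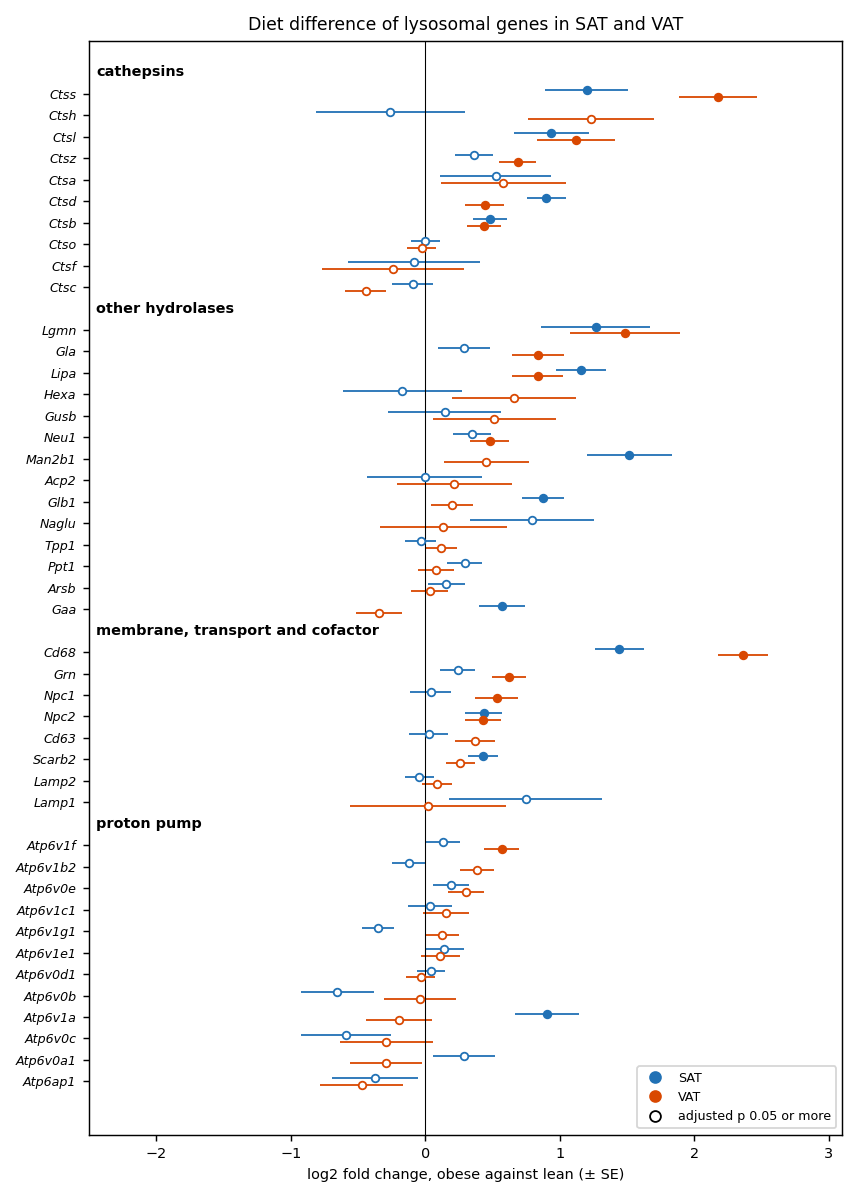
Log2 fold change of obese against lean for the 44 tested members, with its standard error, in SAT (blue) and VAT (orange); filled points passed the adjusted p of 0.05 and open points did not. Filled points are frequent among cathepsins, other hydrolases and membrane proteins, whereas among the 12 pump subunits Atp6v1a in SAT and Atp6v1f in VAT are the filled points.

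Among the cathepsins, 4 of 10 rose in obese SAT (Ctsb, Ctsd, Ctsl and Ctss) and 5 of 10 in obese VAT (the same 4 and Ctsz), with median log2 fold changes of 0.42 and 0.51. These counts rested on single mice, since in SAT 2 rose without lean replicate 2 or 3 and 1 without obese replicate 3, and in VAT 3 rose without lean replicate 1, 2 or 3 or obese replicate 2 and 2 without obese replicate 4. Ctsd encodes the aspartic protease cathepsin D. In SAT it was counted at 3654, 2794, 3308 and 3988 CPM in the lean mice and at 6085, 6659, 6198 and 6704 CPM in the obese mice. In VAT the lean mice had 2849.7, 3566, 4162 and 3929 CPM and the obese mice 3735, 5163, 4741 and 6034 CPM. All obese SAT libraries lay above all lean ones, while in VAT obese replicate 1 lay within the lean range. The fold change of Ctsd was 1.87 in SAT (log2 0.90 ± 0.14 SE, n = 4 per group, adjusted p = 0.000235) and 1.36 in VAT (log2 0.44 ± 0.14, adjusted p = 0.0488). The VAT value was close to the limit and held in 1 of 8 fits that each left out a mouse, with adjusted p up to 0.217 without obese replicate 4.

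Ctsb, which encodes the cysteine protease cathepsin B, was at 1883, 1926, 2075 and 1976 CPM in lean SAT and at 2731, 2623, 2888 and 2721 CPM in obese SAT. In lean VAT it was at 1267, 1651, 1873 and 1948 CPM and in obese VAT at 1954, 2438, 2044 and 2702 CPM. The diets did not overlap in either depot, although in VAT the gap between the highest lean and the lowest obese library was narrow. Its log2 fold change was 0.48 ± 0.13 in SAT (adjusted p = 0.0157) and 0.44 ± 0.13 in VAT (adjusted p = 0.026). In SAT the call was lost without lean replicate 2 or obese replicate 3 (adjusted p up to 0.0564). In VAT it was lost without lean replicate 1 or 2 or obese replicate 2 or 4 (up to 0.126). The VAT call was also lost with no filter and with 1 tissue at a time (up to 0.0764).

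Cathepsin S, the product of Ctss, trims the invariant chain in antigen-presenting cells. Its row was at 1.23, 1.54, 1.14 and 2.97 CPM in lean SAT and 2.84, 3.69, 4.81 and 3.23 CPM in obese SAT. Lean VAT had 1.27, 1.79, 2.35 and 3.08 CPM, and obese VAT had 11.1, 9.37, 8.31 and 12.5 CPM. Obese VAT was thus set apart from the 3 other groups, whereas in SAT lean replicate 4 exceeded the lowest obese library. Ctss rose by a log2 fold change of 2.17 ± 0.29 in VAT (4.51-fold, adjusted p = 2.88e-05) and by 1.20 ± 0.31 in SAT (2.29-fold, adjusted p = 0.0132). The VAT call held in all 8 fits that left out a mouse, and the SAT call was lost without lean replicate 3 or obese replicate 3 (adjusted p up to 0.0681).

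Ctsz, which encodes the carboxypeptidase cathepsin Z, was at 341, 450.0, 572 and 481 CPM in lean VAT while the obese VAT libraries lay apart from these, at 624, 737, 696 and 916 CPM. Its log2 fold change was 0.69 ± 0.14 in VAT (adjusted p = 0.00196) and 0.36 ± 0.14 in SAT (adjusted p = 0.0967), where 389 to 505 CPM were found in lean and 582 to 615 in obese libraries, and the SAT value passed the test with 1 tissue at a time (adjusted p = 0.0369) and without lean replicate 1 (adjusted p = 0.0488). For Ctsl (cathepsin L) the 4 obese SAT libraries lay between 21.7 and 22.5 CPM and the lean ones between 9.97 and 13.6 (log2 0.94 ± 0.28, adjusted p = 0.0323). In obese VAT Ctsl was at 14.5, 14.2, 18.0 and 46.8 CPM against 7.91 to 13.3 in lean VAT (log2 1.12 ± 0.29, adjusted p = 0.0125). Obese replicate 4 carried much of the VAT value, which was 0.51 without that mouse (adjusted p = 0.136). The SAT call of Ctsl held in 3 of 8 fits without a mouse (lost without lean replicate 1, 2 or 3 or obese replicate 1 or 3, adjusted p up to 0.0904).

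The remaining cathepsins did not pass the test as reported in either depot. Ctso, the cathepsin with the largest VAT p, had log2 fold changes of -0.00 ± 0.11 in SAT and -0.03 ± 0.11 in VAT, at 189 to 265 CPM over all 16 libraries. Ctsc, which activates serine proteases of immune cells, was at 130.1 to 152 CPM in lean VAT and 95.9 to 108 CPM in obese VAT, a lower level without overlap that missed the threshold (log2 -0.44 ± 0.15, adjusted p = 0.0661) but passed it with 1 tissue at a time (adjusted p = 0.0168) and without lean replicate 1 (adjusted p = 0.0488). Ctsa, Ctsf and Ctsh were at 3.5 CPM or less, with standard errors of 0.41 to 0.56 on the log2 scale, and Ctsh gave -0.26 in SAT and 1.23 in VAT (adjusted p = 0.0992; 1.30 and called with the other dispersion setting, adjusted p = 0.024).

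**Figure D3:**
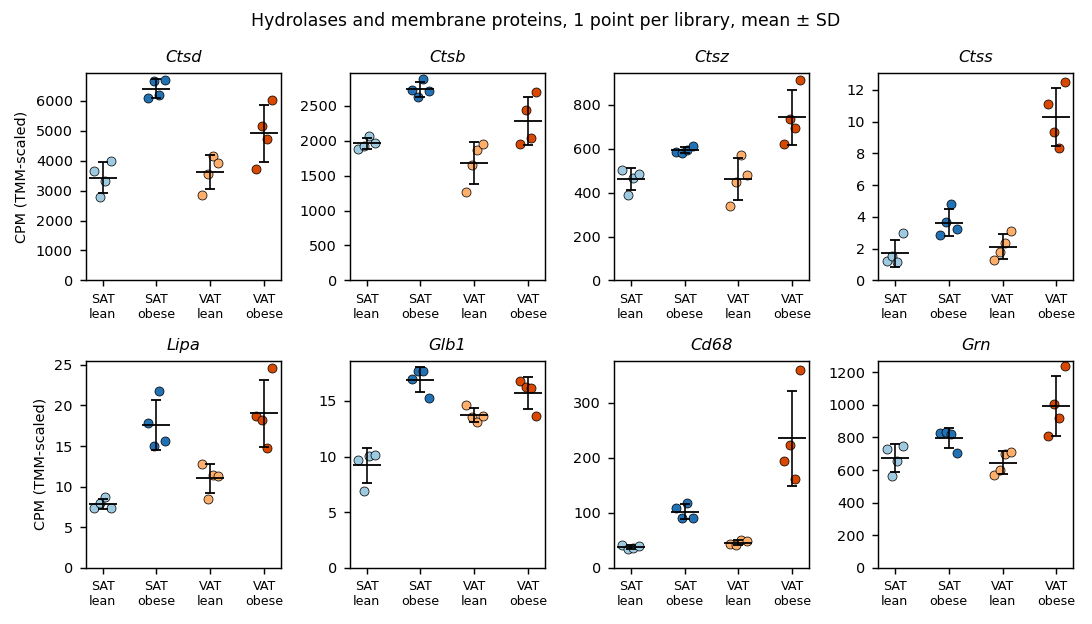
TMM-scaled CPM of 8 members in each of 16 libraries, with the mean and SD of each group (n = 4); each panel has its own scale from 0. Ctsb and Cd68 are higher in all obese libraries than in all lean libraries of the same depot, Ctss and Cd68 are highest in obese VAT, and Glb1 differs by diet in SAT (6.87 to 10.2 against 15.3 to 17.7 CPM).

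Of the other hydrolases, 5 of 14 rose in obese SAT (Lipa, Glb1, Gaa, Man2b1 and Lgmn) and 4 of 14 in obese VAT (Lipa, Gla, Neu1 and Lgmn), with medians of 0.32 and 0.33 on the log2 scale. In SAT the number was 3 without lean replicate 1, 2 or 3 or obese replicate 1 or 2, and in VAT it was 2 without lean replicate 2 or 4 and 1 without obese replicate 4. Lipa encodes lysosomal acid lipase, which hydrolyses the cholesteryl esters and triglycerides delivered to lysosomes. It was at 7.33, 7.99, 8.74 and 7.42 CPM in lean SAT and at 17.9, 14.99, 21.8 and 15.6 CPM in obese SAT. In lean VAT it was at 12.7, 8.52, 11.4 and 11.3 CPM and in obese VAT at 18.7, 18.2, 14.7 and 24.7 CPM. No lean library reached an obese one in either depot. Lipa was 2.23-fold higher in obese SAT (log2 1.16 ± 0.19, adjusted p = 0.000259) and 1.78-fold higher in obese VAT (log2 0.83 ± 0.19, adjusted p = 0.00519), and both calls held in all 8 fits that left out a mouse.

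Glb1, the beta-galactosidase gene, was at 9.71, 6.87, 10.1 and 10.2 CPM in lean SAT and at 16.9, 17.7, 17.7 and 15.3 CPM in obese SAT. In VAT the lean libraries had 14.6, 13.5, 13.1 and 13.7 CPM and the obese ones 16.8, 16.3, 16.1 and 13.7 CPM. Lean SAT was the low group, and the other 3 groups lay close together. The log2 fold change was 0.88 ± 0.16 in SAT (adjusted p = 0.000673) and 0.20 ± 0.16 in VAT (adjusted p = 0.504). Glb1 was 1.51-fold higher in lean VAT than in lean SAT (log2 0.59 ± 0.18, adjusted p = 0.0254). That call between depots was lost without lean replicate 1, 2 or 3 (adjusted p up to 0.184) and with no filter (adjusted p = 0.139).

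Lean SAT was the lowest group for 2 more sugar-cleaving enzymes. Gaa, the acid alpha-glucosidase of glycogen, was at 6.67, 9.26, 8.93 and 9.33 CPM in lean SAT and at 13.6, 13.8, 11.0 and 12.1 CPM in obese SAT (log2 0.57 ± 0.17, adjusted p = 0.0323). In VAT its order was the opposite, with 14.6, 11.9, 12.5 and 16.2 CPM in lean and 10.7, 11.5, 11.3 and 9.56 CPM in obese libraries (log2 -0.35 ± 0.17, adjusted p = 0.234). Diets did not overlap in either depot, and the difference between the responses was -0.87 ± 0.26 (VAT minus SAT, adjusted p = 0.0808). The SAT call of Gaa was lost in 5 of 8 fits without a mouse (lean replicate 1, 2 or 3 or obese replicate 1 or 2, adjusted p up to 0.103). Man2b1, the lysosomal alpha-mannosidase, was at 1.61 to 2.24 CPM in lean SAT and 4.01 to 7.05 in obese SAT (log2 1.51 ± 0.32, 2.86-fold, adjusted p = 0.00309). In VAT Man2b1 was at 8.92, 3.99, 2.67 and 2.09 CPM in lean and 6.49, 4.27, 4.77 and 4.95 CPM in obese libraries (log2 0.45 ± 0.32, adjusted p = 0.429). The row shown for Man2b1 held 47.0% of the counts of its 4 rows. A second row with 46.0% gave -0.16 ± 0.31 in SAT, and with counts summed per gene the SAT value was 0.65 ± 0.21 (adjusted p = 0.0462).

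Gla, the alpha-galactosidase gene that carries a pair of the palindromes, was at 15.3, 18.5, 20.3 and 17.1 CPM in lean VAT, whereas obese VAT had 24.1, 28.3, 25.3 and 49.9 CPM (log2 0.84 ± 0.20, adjusted p = 0.00644). Obese replicate 4 stood above the rest, and without that mouse the log2 fold change was 0.53 (adjusted p = 0.0527). In SAT the ranges overlapped, 17.1 to 21.5 CPM in lean and 20.3 to 26.5 in obese libraries (log2 0.29 ± 0.19, adjusted p = 0.374). Lgmn encodes legumain, the asparaginyl endopeptidase that processes cathepsins. Its counts were scattered, at 2.39 to 3.81 CPM in lean SAT, 4.68 to 9.5 in obese SAT, 3.1 to 12.1 in lean VAT and 6.4 to 27.9 in obese VAT. The log2 fold change of Lgmn was 1.27 ± 0.41 in SAT (adjusted p = 0.0474) and 1.49 ± 0.41 in VAT (adjusted p = 0.019). These calls held in 1 and 3 of 8 fits without a mouse, where the SAT call remained without obese replicate 3 and the VAT call without lean replicate 1 or obese replicate 2 or 3 (adjusted p otherwise up to 0.145 and 0.106).

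Neu1, the lysosomal sialidase, was at 46.1 to 59.7 CPM in lean VAT and 52.7 to 81.1 in obese VAT (log2 0.48 ± 0.15, adjusted p = 0.0376), a call that was lost in 6 of 8 fits without a mouse and kept without lean replicate 3 or obese replicate 1 (adjusted p otherwise up to 0.164). The abundant hydrolases Tpp1 (a tripeptidyl peptidase, 218 to 338 CPM) and Arsb (arylsulfatase B, 166 to 293 CPM) gave log2 fold changes of -0.04 ± 0.11 and 0.16 ± 0.14 in SAT and of 0.12 ± 0.11 and 0.03 ± 0.14 in VAT. Ppt1, a palmitoyl-protein thioesterase, gave 0.29 ± 0.13 in SAT (adjusted p = 0.17) and 0.08 ± 0.13 in VAT. Hexa, Gusb, Naglu and Acp2 were at 5.35 CPM or less in each library, with log2 fold changes between -0.17 and 0.79 and standard errors of 0.42 to 0.47, and none passed the test.

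Among membrane, cholesterol transport and cofactor proteins, 3 of 8 tested rose in obese SAT (Scarb2, Cd68 and Npc2) and 4 of 8 in obese VAT (Cd68, Npc1, Npc2 and Grn), with medians of 0.33 and 0.40; in VAT the number was 2 without lean replicate 1, 2 or 4 or obese replicate 3 or 4. Cd68 encodes macrosialin, a lysosomal membrane glycoprotein used as a marker of macrophages. In SAT its lean libraries were at 40.9, 33.2, 35.3 and 40.3 CPM and its obese ones at 108.7, 89.7, 117 and 90.7 CPM. In VAT the lean libraries were at 42.7, 41.5, 50.4 and 48.0 CPM and the obese ones at 194, 223, 162 and 360.1 CPM. The 3 steps from lean to obese SAT to obese VAT did not overlap, and obese VAT replicate 4 was the highest of all. Cd68 rose 2.71-fold in SAT (log2 1.44 ± 0.18, adjusted p = 1.91e-05) and 5.13-fold in VAT (log2 2.36 ± 0.19, adjusted p = 5.29e-08), the smallest adjusted p of the members in each depot. Both calls held in all 8 fits without a mouse, with log2 values of 1.37 to 1.49 in SAT and 2.07 to 2.50 in VAT.

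Grn encodes progranulin, which is processed in lysosomes. It was at 567, 601, 701 and 713 CPM in lean VAT, whereas obese VAT had 811, 1005, 919 and 1239 CPM, without overlap (log2 0.62 ± 0.13, adjusted p = 0.00269). In SAT it was at 562 to 750.2 CPM in lean and 704 to 835 in obese libraries (log2 0.24 ± 0.13, adjusted p = 0.256). The soluble cholesterol carrier gene Npc2 was at 1426, 1266, 1598 and 1510.0 CPM in lean SAT and 1815, 1946, 1904 and 2163 CPM in obese SAT, with the diets apart. Its log2 fold change was 0.43 ± 0.13 in each depot (adjusted p = 0.0411 in SAT and 0.043 in VAT), but in VAT lean libraries reached 1464 CPM and obese replicate 1 was at 1332. These calls of Npc2 held in 3 and 2 of 8 fits without a mouse (adjusted p up to 0.147 and 0.168): in SAT without lean replicate 1 or 3 or obese replicate 1, in VAT without lean replicate 3 or obese replicate 1.

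Npc1, which works with Npc2 in moving cholesterol out of lysosomes, was at 17.8, 22.7, 26.5 and 25.4 CPM in lean VAT, whereas obese VAT had 29.8, 29.7, 33.3 and 42.8 CPM (log2 0.53 ± 0.16, adjusted p = 0.0315). In SAT the diets overlapped, at 21.5 to 27.7 CPM in lean and 21.1 to 27.0 in obese libraries (log2 0.04 ± 0.15). The VAT call of Npc1 was lost in 5 of 8 fits without a mouse (lean replicate 1, 2 or 4 or obese replicate 3 or 4, adjusted p up to 0.176). Scarb2, the receptor that carries beta-glucocerebrosidase to lysosomes, was at 550.2 to 606 CPM in lean SAT and 701 to 859 in obese SAT (log2 0.43 ± 0.11, adjusted p = 0.0138), and gave 0.26 ± 0.11 in VAT (adjusted p = 0.146). The structural membrane proteins Lamp2 (391 to 559 CPM) and Cd63 (26.6 to 50.4 CPM) gave log2 fold changes of -0.04 ± 0.11 and 0.02 ± 0.15 in SAT and 0.09 ± 0.11 and 0.37 ± 0.15 in VAT, none past the threshold. Lamp1 was at 2.55 CPM or less, with standard errors of 0.57 and 0.58.

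Of the proton pump subunits, 1 of 12 tested rose in each depot, Atp6v1a in SAT and Atp6v1f in VAT. The log2 fold changes of its 12 tested subunits centred on 0.04 in each depot, with 7 higher and 5 lower in SAT and 6 higher and 6 lower in VAT. Atp6v1a, the ATP-binding A subunit of V1, was at 4.12, 2.94, 4.75 and 3.81 CPM in lean SAT and 5.6, 7.39, 7.7 and 8.92 CPM in obese SAT. In VAT it was at 2.55, 5.07, 6.3 and 5.61 CPM in lean and 3.06, 4.27, 5.82 and 4.52 CPM in obese libraries. SAT was thus split by diet and VAT was not (log2 0.90 ± 0.24 and -0.20 ± 0.25, adjusted p = 0.0157 and 0.694). The SAT call was lost without lean replicate 2 or obese replicate 4 (adjusted p up to 0.0701).

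Atp6v1f, the F subunit of the V1 stalk, was at 54.1, 56.0, 54.9 and 59.8 CPM in lean VAT, whereas obese VAT had 72.2, 76.0, 85.7 and 98.8 CPM, without overlap (log2 0.57 ± 0.13, adjusted p = 0.00519). This VAT call held in all 8 fits without a mouse but was lost with no filter on low counts (adjusted p = 0.0558). In SAT the diets overlapped, at 58.9 to 72.1 CPM in lean and 59.3 to 80.9 in obese libraries (log2 0.13 ± 0.13). The nucleotide-binding B subunit gene Atp6v1b2 gave a log2 value of 0.38 ± 0.13 in VAT that missed the threshold (adjusted p = 0.0552) and -0.12 ± 0.13 in SAT; with the replicate number as a block, DESeq2 or the other dispersion setting, the VAT value passed it (adjusted p = 0.0265, 0.0489 and 0.0467). Atp6v1g1, a stalk subunit gene, was at 153, 146, 143 and 143 CPM in lean SAT and 119, 112, 103 and 124 CPM in obese SAT, lower without overlap but not called (log2 -0.35 ± 0.12, adjusted p = 0.0596). With DESeq2 it was called lower (adjusted p = 0.0387), as it was with the replicate block (adjusted p = 0.043), 1 tissue at a time, counts summed per gene and without obese replicate 4 (adjusted p = 0.0273 to 0.0452).

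Several well-counted subunits had small differences by diet. Atp6v0d1, Atp6v0e and Atp6v1e1, each above 150 CPM in all libraries, had log2 fold changes of 0.04 to 0.19 in SAT and -0.04 to 0.30 in VAT, with standard errors of 0.11 to 0.14 and adjusted p from 0.166 to 0.893. Atp6v1c1, at 20.4 to 39.5 CPM, gave 0.03 ± 0.16 and 0.15 ± 0.17. The rows of Atp6v0a1, Atp6v0b, Atp6v0c and Atp6ap1 were below 10 CPM and their values lay between -0.65 and 0.28, with standard errors of 0.23 to 0.35. With counts summed per gene Atp6v0b was called lower in SAT (log2 -0.65, adjusted p = 0.0488). The errors of these rows exceed that of the abundant Ctsb (0.13).

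**Figure D4:**
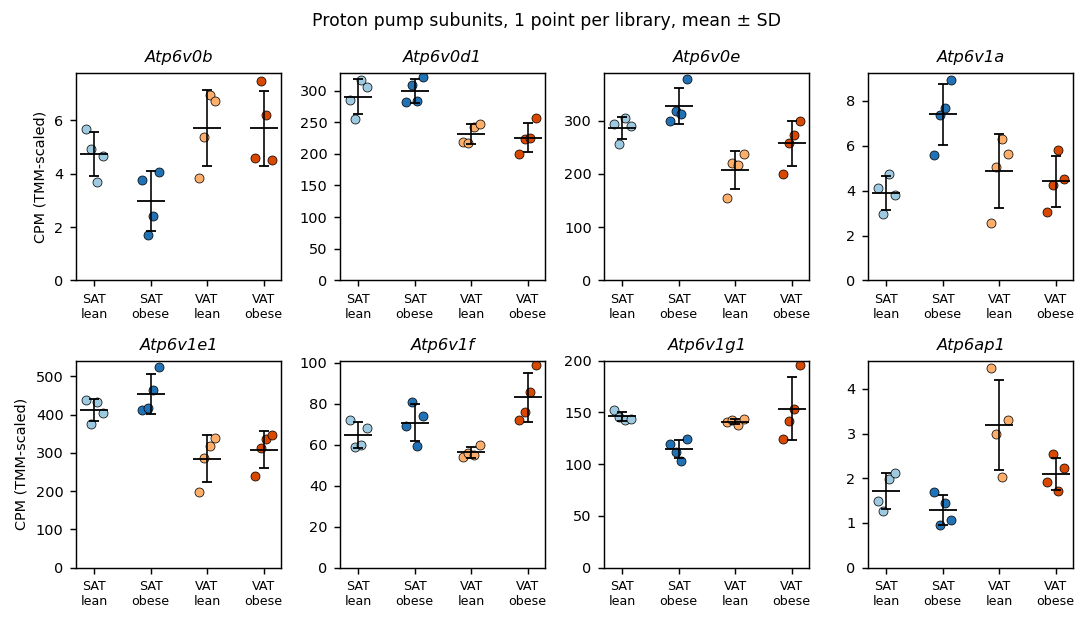
TMM-scaled CPM of 8 proton pump subunits in each of 16 libraries, with the mean and SD of each group (n = 4), each panel on its own scale from 0. Atp6v0d1, Atp6v0e and Atp6v1e1 are lower in VAT than in SAT under both diets, Atp6v1f is higher in obese than in lean VAT, and Atp6v1g1 is lower in obese than in lean SAT.

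Without overlap between the diets, 13 members were higher and 1 lower in obese SAT, where 9.61% of all rows were higher and 7.64% lower in that way. In VAT 11 were higher and 2 lower (Ctsc and Gaa), where 8.35% and 5.0% of all rows were. The counts of called members rested in part on single mice. In SAT the number higher was 7 to 11 when a mouse was left out, with 7 without lean replicate 2. In VAT it was 6 to 14, with 9 when lean replicate 1 (the mouse of the shallowest library) or lean replicate 4 was left out, 8 when lean replicate 2 was, and 6 when obese replicate 4 was. The 6 called without obese replicate 4 were Ctss, Ctsz, Lipa, Cd68, Grn and Atp6v1f. Calls that held in every fit without a mouse and under all 7 other settings were those of Ctsd, Lipa, Glb1, Man2b1, Scarb2 and Cd68 in SAT and of Ctss, Ctsz, Lipa, Cd68 and Grn in VAT.

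Whether the diet response differed between depots was tested directly, as the VAT response minus the SAT response within mice. At an adjusted p below 0.05, 0 of 44 members differed, where 0.888% of all rows were higher and 1.29% lower. At an unadjusted p below 0.05 there were 8 higher and 5 lower, and DESeq2 called Cd68 higher and Gaa and Atp6v1a lower. The smallest adjusted p belonged to Cd68 (difference 0.85 ± 0.24 on the log2 scale, adjusted p = 0.0642), Gaa (-0.87 ± 0.26, 0.0808) and Atp6v1a (-1.14 ± 0.35, 0.0924). For Ctsd, whose fold change was larger in SAT, the difference was -0.48 ± 0.17 (adjusted p = 0.145). It was called with no filter (-0.55, adjusted p = 0.0206) and without lean replicate 1 (-0.63, adjusted p = 0.0206). In simulated counts a difference of 1 on the log2 scale was called in 22% of rows when placed in SAT and 19% when placed in VAT, so the members called in 1 depot and not in the other are not shown to respond differently.

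Between depots of lean mice, compared within mice, 4 hydrolases were higher in VAT (Ctsc, Glb1, Gaa and Man2b1). Lower in VAT were 3 pump subunits (Atp6v0d1, Atp6v0e and Atp6v1e1). Of all rows 7.98% were higher and 6.84% lower, and the counts over the 44 tested members were close to those shares. Ctsc was 1.53-fold higher (log2 0.62 ± 0.13, adjusted p = 0.00133). Atp6v1e1, the E subunit of the V1 stalk, was at 438, 376, 433 and 403 CPM in lean SAT and 197, 286, 319 and 338 CPM in lean VAT (log2 -0.55 ± 0.12, adjusted p = 0.00336). Every mouse had the lower value in VAT. Atp6v0e, a small V0 subunit, was at 294, 257, 304 and 289.9 CPM in lean SAT and 155, 221, 217 and 237 in lean VAT (log2 -0.47 ± 0.12, adjusted p = 0.00716). Atp6v0d1, which couples V0 to V1, gave -0.32 ± 0.10 (adjusted p = 0.0265). Its call was lost without lean replicate 1, 2, 3 or 4 (adjusted p up to 0.143) and with no filter (adjusted p = 0.191). The calls of Ctsc, Atp6v0e and Atp6v1e1 held in all 8 fits without a mouse, while the number of higher members dropped to 1 when lean replicate 1 or 3 was left out and to 2 when lean replicate 2 was.

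In obese mice 8 members were higher in VAT (Ctsh, Ctss, Lgmn, Lamp2, Cd68, Npc1, Atp6v0b and Atp6v1g1) and 6 lower (Ctsd, Atp6v0a1, Atp6v0d1, Atp6v0e, Atp6v1a and Atp6v1e1), where 15.9% and 13.5% of all rows were. Over the 44 tested members both counts were close to those shares. By role, 5 of 12 tested pump subunits were lower in obese VAT than in obese SAT and 2 higher. Without obese replicate 4, 3 pump subunits were lower. The number of pump subunits higher was 0 without obese replicate 3 and 1 without obese replicate 2 or 4. Atp6v0a1, the a1 subunit of V0, was lower by the widest margin (log2 -1.24 ± 0.26, adjusted p = 0.000739), at 4.77 to 8.02 CPM in obese SAT and 1.88 to 2.96 in obese VAT. Atp6v1e1 was again lower (log2 -0.56 ± 0.12, adjusted p = 0.00121). Among cathepsins, Ctsh was higher by 2.48 ± 0.47 (adjusted p = 0.000345) at 2.05 to 3.5 against 0.308 to 1.15 CPM, Ctss by 1.48 ± 0.25 (adjusted p = 0.00011), and Ctsd was lower (log2 -0.40 ± 0.12, adjusted p = 0.0118). The row of Ctsh held 75.8% of its counts, and with counts summed per gene the value was 1.81 ± 0.39 (adjusted p = 0.00141). The number of higher members fell to 5 without obese replicate 3 and to 5 without obese replicate 4. The call of Ctsd was lost without obese replicate 1 (adjusted p = 0.0583). That of Lamp2 held in 4 of 8 fits without a mouse (adjusted p up to 0.158) and under 3 of 6 other settings.

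Genes of the same pathway outside the members, were taken from lists by function. Of 17 tested other lysosomal enzymes 1 rose in SAT and 3 in VAT, where 6.21% and 6.84% of all rows rose, and of 15 other membrane and sorting proteins 2 rose in SAT, and 3 rose and 1 fell in VAT. Of the enzymes 3 rose in SAT without lean replicate 1 or obese replicate 4, and of the membrane and sorting proteins 1 rose in VAT without lean replicate 4 or obese replicate 3 or 4, and 0 fell without lean replicate 3 or obese replicate 4. Ctsk, which encodes the collagen-cleaving cathepsin K, was at 144, 143, 176 and 201 CPM in lean SAT and 165, 149, 216 and 192 CPM in obese SAT, but at 29.3, 39.9, 41.9 and 53.2 CPM in lean VAT, whereas obese VAT had 83.3, 104, 99.8 and 418 CPM. Its response differed between depots (log2 0.12 ± 0.33 in SAT, 2.08 ± 0.36 in VAT, difference 1.63 ± 0.32, adjusted p = 0.00679), with obese VAT replicate 4 far above the rest. Without that mouse the VAT value was 1.19 ± 0.17 and the difference 1.13 ± 0.18 (adjusted p = 0.00256). Ctse, an aspartic protease gene, rose by 2.05 ± 0.48 in SAT and 2.02 ± 0.36 in VAT, and Ctsw, a cathepsin gene of cytotoxic lymphocytes, by 1.68 ± 0.47 in VAT, a call lost in 3 of 8 fits without a mouse (lean replicate 3 or 4 or obese replicate 4, adjusted p up to 0.0877). Laptm5, a lysosomal membrane protein gene of blood-derived cells, rose by 0.98 ± 0.16 in SAT and 1.47 ± 0.16 in VAT. Igf2r, the receptor that sorts hydrolases by their mannose 6-phosphate tag, rose by 0.60 ± 0.13 in SAT. Clcn7 rose by 2.71 in VAT, a call that held in 3 of 5 fits without a mouse (adjusted p up to 0.0795). Slc11a1 rose by 2.19 in VAT, held in 3 of 8 fits (up to 0.134). Laptm4b fell in VAT (log2 -0.47), held in 6 of 8 fits (up to 0.0748).

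Of 6 other proton pump subunits tested, 2 rose in each depot, where 6.21% of all rows rose in SAT and 6.84% in VAT. Atp6v0d2, the d2 subunit that is known from osteoclasts and macrophages and stands in for Atp6v0d1, was at 1.81, 0.701, 1.52 and 2.33 CPM in lean SAT and 8.59, 8.76, 13.4 and 10.8 CPM in obese SAT. In lean VAT it was at 0, 0.596, 1.07 and 0.661 CPM and in obese VAT at 19.5, 23.3, 18.0 and 55.6 CPM. The obese libraries were far above the lean ones in both depots, while those of Atp6v0d1 overlapped between diets. The log2 fold change of Atp6v0d2 was 2.73 ± 0.37 in SAT (adjusted p = 4.76e-05) and 5.36 ± 0.43 in VAT (adjusted p = 5.29e-08), and the responses differed (2.36 ± 0.55, adjusted p = 0.0223). That difference was lost without lean replicate 3 or 4 or obese replicate 4 (adjusted p up to 0.114), and it ranged from 2.00 to 2.69 over the 8 fits. Atp6v0a2 rose by 0.38 ± 0.10 in SAT, and Atp6ap2, an accessory subunit gene, by 0.38 ± 0.12 in VAT, a call that held in 0 of 8 fits without a mouse (adjusted p up to 0.146); that of Atp6v0a2 was lost without lean replicate 2 (adjusted p = 0.0748).

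Of 8 listed inhibitors of cysteine cathepsins 3 were tested. Among these 2 rose in SAT (Cst3 and Cstb) and 3 in VAT, where 6.21% and 6.84% of all rows rose. Cst3, the cystatin C gene, rose by 0.41 ± 0.11 in SAT and 0.70 ± 0.11 in VAT, and Cstb, the gene of the intracellular cystatin B, by 0.62 ± 0.16 and 0.85 ± 0.16. Both SAT calls held in 5 of 8 fits without a mouse (adjusted p up to 0.0774; lost without lean replicate 2 or 3, and without obese replicate 4 for Cst3 and 2 for Cstb). Cst7, the cystatin F gene of immune cells, rose by 1.62 ± 0.31 in VAT. For autophagy edgeR called 0 of 16 tested genes in either depot, beside 6.21% of all rows higher and 4.84% lower in SAT and 6.84% and 4.08% in VAT (at an unadjusted p below 0.05, 1 higher in SAT and 1 lower in VAT; DESeq2 called 1 higher in SAT; without lean replicate 2, edgeR called 1 lower in VAT). Of 10 tested genes of TFEB control and nutrient sensing, edgeR and DESeq2 called 0 in either depot (at an unadjusted p below 0.05, 1 higher and 2 lower in SAT and 1 higher in VAT; edgeR called 1 higher and 1 lower in VAT without obese replicate 1 and 1 higher in SAT without obese replicate 4). Mtor, the kinase that holds TFEB in the cytosol, differed between the responses (-0.97 ± 0.22, adjusted p = 0.0212), at 0.55 ± 0.21 in SAT and -0.38 ± 0.23 in VAT, neither of which was called. The difference was lost without lean replicate 2 or 3 or obese replicate 2 or 4 (adjusted p up to 0.0918).

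Markers of cell types were compared by diet as well. Over all rows 6.21% were higher and 4.84% lower in obese SAT, and 6.84% and 4.08% in obese VAT. These shares stand beside each count of called markers in this paragraph. Of 15 markers of macrophages, none of which is a member, 13 were tested, and 8 were higher in obese SAT and 11 in obese VAT. Their summed level was 1426 to 2084 CPM in lean SAT, 2313 to 3264 in obese SAT, 2502 to 3285 in lean VAT and 5609 to 8021 in obese VAT, where obese replicate 4, the library highest in Cd68, Ctsl, Gla and Ctsk, was again the highest. The receptor gene Csf1r rose by 0.81 ± 0.13 in SAT and 0.92 ± 0.13 in VAT, Lyz2 by 0.61 ± 0.17 (lost without lean or obese replicate 3, adjusted p up to 0.0794) and 1.27 ± 0.17, and Itgax by 1.40 ± 0.30 and 3.16 ± 0.32. Adgre1 and Aif1 had 12 and 19 counts over 16 libraries and did not pass the filter. Of 11 tested markers of lipid-associated macrophages, 5 rose and 1 fell in SAT, and 8 rose and 1 fell in VAT, with Gpnmb at 4.06 ± 0.43 in VAT (3.1 ± 0.22 without obese replicate 4); that list holds Atp6v0d2, and the marker that fell, Lpl, is also an adipocyte gene whose SAT call was lost without lean replicate 2 or 3 or obese replicate 3 (adjusted p up to 0.101). Adipocyte markers summed to 71547 to 87650 CPM in obese SAT and 33686 to 44672 in obese VAT, and 5 of 12 fell in VAT, while in SAT 2 fell and 1 rose. The number that fell in VAT was 3 without lean replicate 1 or 3 and 1 (Lpl) without obese replicate 4, and in SAT it was 0 without lean replicate 2 or obese replicate 3 and 1 without lean replicate 3 or obese replicate 4. Of 7 tested markers each, 4 of T cells and 5 of B and plasma cells rose in VAT, and 1 and 0 in SAT (for B and plasma cells 0 also at an unadjusted p below 0.05 and by DESeq2, which called 1 in VAT). In VAT 2 of T cells rose without obese replicate 4, and 3 of B and plasma cells without lean replicate 2, 3 or 4 or obese replicate 2 or 4, while the T cell count in SAT was 0 to 2 over the 8 fits, with 2 without lean replicate 3 or obese replicate 2 and 0 without lean replicate 1, 2 or 4 or obese replicate 1 or 4. Of 8 tested markers of intestinal epithelium 3 fell in VAT, with sums of 15.2 to 64.7 CPM in lean and 14.1 to 29.0 in obese VAT. DESeq2 called 2 lower, and edgeR called 0 without lean replicate 2, 1 without lean replicate 1 or 4 or obese replicate 3 or 4, and 5 without lean replicate 3. Of 7 tested endothelial markers 1 rose in SAT (Vwf, 1.64 ± 0.24, adjusted p = 0.000129), 4 without lean replicate 1, and all 7 had log2 values above 0 there (median 0.45); their sums overlapped, at 245 to 477 CPM in lean and 366 to 575 in obese SAT. In VAT edgeR and DESeq2 called 0 of them, and 0 had an unadjusted p below 0.05. In bulk tissue, more cells of a type and more RNA per cell cannot be told apart, and the part of these cells in the changes of the members was not tested.

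**Figure D5:**
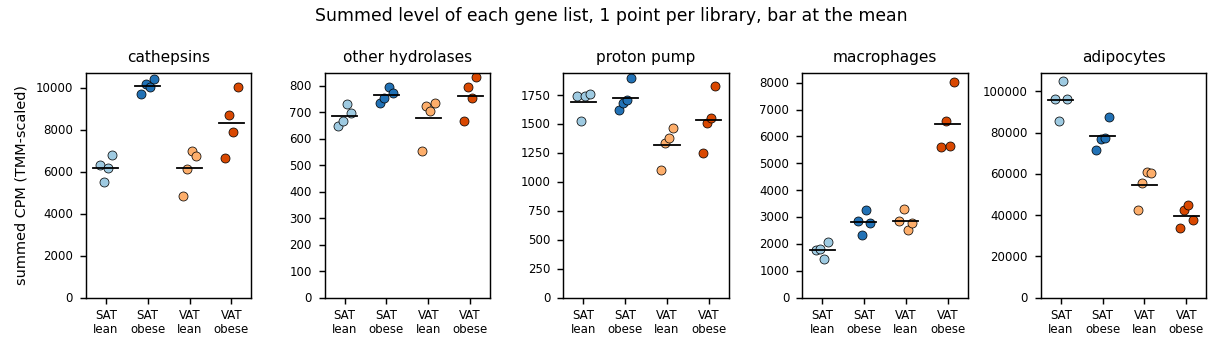
Summed TMM-scaled CPM of 5 gene lists in each of 16 libraries, with a bar at the mean of each group (n = 4), each panel on its own scale from 0; the cathepsin sum is mainly Ctsd and Ctsb because raw counts add up unequally. The cathepsin sum is 5486 to 6781 CPM in lean SAT and 9709 to 10405 in obese SAT, the pump sum overlaps between diets in both depots, and the macrophage sum is highest and the adipocyte sum lowest in obese VAT.

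Sums over a role give the cathepsins and the pump library by library. The 10 cathepsins summed to 5486 to 6781 CPM in lean SAT and 9709 to 10405 in obese SAT, and to 4826 to 6983 in lean VAT and 6668 to 10039 in obese VAT. Diets were apart in SAT, and in VAT obese replicate 1 lay within the lean range. The 12 pump subunits summed to 1523 to 1757 CPM in lean SAT, 1618 to 1899 in obese SAT, 1100.0 to 1462 in lean VAT and 1249 to 1829 in obese VAT, with overlap in both depots. Lean VAT was the lowest group for the pump sum, and each of its libraries lay below each SAT library.

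Promoter boxes were found in members that rose and in members that were not called. Of members with a window, 6 of 17 called in SAT or VAT held the 7-base box (35.3%), as did 6 of 21 tested and not called (28.6%). Among the palindromes printed above, those of Ctsd, Gla and Atp6v1a belong to genes called in at least 1 depot, those of Ctsa, Atp6v0d1 and Atp6v0e to genes called in neither, and those of Cln3 and Mcoln1 to genes not tested. Of the 8 members that rose in both depots, Ctsd held the palindrome, Lgmn the 7-base box and Ctsl the 6-base box. Cd68, Ctss, Lipa and Npc2 held none of the boxes in their windows, and Ctsb had no window.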

How the data were processed

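The authors aligned reads to GRCm39 and counted them per RefSeq transcript; the submitters' processing notes name FastQC 0.11.9, Trim Galore 0.6.6, HISAT2 2.2.0, bedtools 2.29.2, SAMtools 1.11, HTSeq 0.13.5 and edgeR 3.34.0. The strand setting and the treatment of reads shared by transcripts are not given in the sources used here. The deposited table holds raw counts and CPM for 130343 rows in 16 libraries; the deposited CPM equals the counts scaled to the column total and was used only to filter rows and to pick the most abundant row of a gene. Of the rows, 82.0% matched a symbol in RefSeq's table. Depth ran from 1256082 to 16614407 counts.

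Counts were tested with edgeR 4.0.16 (R 4.3.3; TMM scaling, quasi-likelihood F-test, all 16 libraries, 13288 rows above 1 CPM in at least 3 libraries, Benjamini-Hochberg over all rows); standard errors are the log2 fold change divided by the square root of F. Diets were compared without a block, and depots and the difference of responses with mouse as a block, since each mouse gave both depots. Deviations of SAT and VAT from their group means correlated at a median of 0.104 (-0.0198 to 0.224) within 8 mice. Between mice the median was -0.052 (-0.206 to 0.169), so the ranges overlapped. Lean and obese mice of 1 number come from no stated pairing. Their deviations correlated at 0.105 to 0.217 in VAT, where the differently numbered lean 2 and obese 4 reached 0.124, and at -0.13 to 0.0677 in SAT. Replicates are mice. Tested on simulated data (12613 and 12678 rows), the test called 49% (SAT) and 45% (VAT) of rows changed by 1 on the log2 scale and 90% of those changed by 2, with 8.55% and 5.59% of calls false. Alternatives were RLE size factors, no filter, DESeq2 1.42.0, counts summed per symbol, another dispersion setting (legacy=FALSE), 1 tissue at a time, the block, and each mouse left out.

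The members and lists were chosen with earlier results of these data known. Each role group is described by counts; named individually were, per group, up to 4 members with the smallest adjusted p in VAT, up to 2 in SAT, up to 2 per direction between lean depots, 3 with the largest p in VAT, and Cd68, Tfeb and Tfe3; and, per related list, up to 4 called genes with the largest change. Others named were chosen after their values were seen. Boxes were searched by exact match on both strands.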

Additional observations from a re-analysis of the deposited data

Results flagged for a closer look

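In groups of 4, a library is listed when it lies far from the other 3 by Dixon's ratio, and chance gives about 1 in 20 groups. Of 176 groups (44 members in 4 groups) 10 were listed, or 5.68%. VAT obese replicate 4 accounted for 4 of them, being highest in Ctsl (46.77 CPM, median of the others 14.51), Gla (49.93 CPM against 25.31) and Ppt1 (52.49 CPM against 44.62) and lowest in Lamp1 (0.1707 CPM against 1.15). The diet calls of Ctsl and Gla in VAT were lost without this mouse. VAT obese replicate 3 was highest in Ctsf (1.241 CPM against 0.4109).

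In SAT, Ctsh was high in lean replicate 4 (1.484 CPM against 0.494) and in obese replicate 1 (1.15 CPM against 0.3167). Glb1 was low in lean replicate 2 (6.871 CPM against 10.07), Gaa in lean replicate 1 (6.668 CPM against 9.255) and Grn in obese replicate 4 (703.6 CPM against 825.1).

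Gaa was also listed because all obese libraries were above all lean libraries in SAT and below them in VAT. The test of the difference, -0.875 on the log2 scale (VAT minus SAT), gave an adjusted p of 0.0808 with edgeR and 0.0294 with DESeq2. No explanation of these values was tested.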

How the results depend on the processing

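No called member changed sign under any setting. Of 91 values of the 13 members called in SAT under the 7 other settings 88 stayed past the threshold, and 82 of 98 in VAT; with a mouse left out, 76 of 104 and 76 of 112 did. Members lower in SAT, 0 as reported, were 1 with DESeq2, 2 with counts summed per gene and 1 with 1 tissue at a time; leaving out mice gave 0 to 1 (1 without obese replicate 4). Members higher in VAT, 14 as reported, were 8 with no filter and 7 with 1 tissue at a time, where 1 was lower. The calls lost with no filter were Ctsb, Ctsd, Neu1, Npc1, Npc2 and Atp6v1f. Those lost with 1 tissue at a time were Ctsb, Ctsd, Ctsl, Neu1, Lgmn, Npc1 and Npc2. Leaving out mice gave 6 to 14 higher and 0 to 1 lower (1 without lean replicate 1). Members higher in SAT were 7 to 11. For the difference of responses, no filter gave 1 higher and 1 lower, DESeq2 1 and 2, and leaving out mice 0 to 1 and 0 to 2 (Cd68 without obese replicate 3; Ctsd and Atp6v1a without lean replicate 1). Between lean depots, no filter gave 1 higher, and leaving out mice 1 to 4 higher and 2 to 4 lower; between obese depots, no filter gave 5 higher, the members above 10 CPM 4, and leaving out mice 5 to 10 higher and 4 to 7 lower. The cause of these shifts was not tested.

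With the replicate number as a block, 13 members were higher and 1 lower in SAT by diet. In VAT 15 were higher and 0 lower. The deviations of same-numbered lean and obese libraries correlated at 0.105 to 0.217 in VAT and -0.13 to 0.0677 in SAT. The differently numbered VAT libraries lean 2 and obese 4 correlated at 0.124, so the values do not establish that the numbers pair mice. Among members the block added the calls of Atp6v1b2 in VAT and Atp6v1g1 in SAT and changed no other call in VAT. Without the mouse block, the difference of responses gave 0 higher and 0 lower, lean depots 3 and 3, and obese depots 7 and 5.

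Precision is limited for members below 10 CPM and by the shallow libraries VAT lean 1 and VAT obese 1.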
